A study of Equus caballus with 32 samples.

Results

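The genes described here are 10 components of the NF-kB pathway: the subunits NFKB1, NFKB2, RELA, RELB and REL, the inhibitors NFKBIA, NFKBIE, NFKBIZ and TNFAIP3, and the kinase IKBKB. They were looked for by the gene name that the array files give to each probe. That name found 7 of the 10 genes on 17 probes, of 14268 gene symbols and 43987 probes on the array. NFKB2, NFKBIE and IKBKB have 1 probe each that the files name only in the probe's description, and these 3 probes were added. The gene name that the files give to the NFKB2 probe is NFKB, so its assignment to NFKB2 rests on the description. All 10 genes were measured in whole blood of 32 Welsh Pony mares (Equus caballus), sampled 30 days after their foals were weaned. Weaning was progressive for 16 mares and brutal for 16 mares, and the labels give neither the ages of the mares nor the weaning procedures. Each mare's blood RNA, stabilised at collection, was labelled with 1 dye and hybridised to 1 array. The arrays lay on 4 slides, each with 4 mares of each group.

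NF-kB is a family of transcription factors that act as pairs of subunits, and in resting cells inhibitor proteins hold most of these pairs in the cytoplasm. In the canonical route, signals from cytokine, Toll-like and antigen receptors activate a kinase complex that contains IKBKB. The kinase marks the inhibitors for destruction and frees pairs that contain RELA or REL. In the non-canonical route, the precursor made by NFKB2 is cut to a shorter subunit that pairs with RELB. These roles were established in human and mouse cells, where several inhibitor genes are themselves switched on by NF-kB. The pathway is a main regulator of inflammatory genes in blood leukocytes.

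Some of the probes that the results turn on are shown first, and the NFKB2 probe is not among them. For RELA and RELB the results differ between, or were repeated on, probes that share no stretch of sequence. The sequences are printed 5′ to 3′ as in the array files, in lower case throughout, with no bases marked. The chromosome that the files give is 12 for RELA, 10 for RELB and TNFAIP3, 1 for NFKBIA and 27 for IKBKB, and the 50-base RELB oligo was not placed by the files. RELB and RELB oligo are the 2 probes of RELB. RELA is the probe that lies apart from the other 3 RELA probes, and NFKBIA the probe that lies apart from the other 5 NFKBIA probes. TNFAIP3 and IKBKB are the single probes of those genes.
RELB: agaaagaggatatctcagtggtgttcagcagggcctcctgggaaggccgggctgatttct
RELB oligo: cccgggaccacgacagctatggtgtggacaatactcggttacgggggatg
RELA: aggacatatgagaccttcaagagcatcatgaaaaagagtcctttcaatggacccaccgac
NFKBIA: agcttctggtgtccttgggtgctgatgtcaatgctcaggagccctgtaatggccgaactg
TNFAIP3: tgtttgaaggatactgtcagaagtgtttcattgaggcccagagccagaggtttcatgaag
IKBKB: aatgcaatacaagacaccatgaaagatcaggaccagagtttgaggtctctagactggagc

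Values are log2 processed signals minus the array's own 75th percentile, so a value of 0 is the level of that percentile and a step of 1 is a doubling. The percentile itself lay between 339.5 and 646 signal units, and between 53.0% and 66.0% of the spots of an array were well above background. Signals of different probes are not compared as amounts of RNA, because probes differ in how well they bind. All 10 genes were bright enough to be tested. TNFAIP3 was well above background on 30 arrays, 15 in each group, and the others on all 32.

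None of the 10 genes passed the test between progressive and brutal weaning (limma, Benjamini-Hochberg adjusted p under 0.05 over 9156 genes), and nor did any of the 9156 genes (0.00%). At an unadjusted p under 0.05, NFKB2 alone of the 10 was called, against 2.56% of all genes. The count of members at that threshold was 0 with quantile normalization, in the authors' deposited table, without slide 1, without slide 2, without slide 4 and without the array of progressive mare 16, and 2 without slide 3. With a mean-variance trend and robust variances in limma, 0 of 9156 genes passed and 230 had an unadjusted p under 0.05. In the same way 0 of 26368 probes passed (0.00%) and 726 had an unadjusted p under 0.05 (2.75%). Of the 10 genes, 7 had a lower mean after progressive weaning, where 58.2% of all genes did, and 3 had a higher mean, where 41.8% did. Their median difference was -0.09, beside -0.02 for all genes. The members' median was -0.02 with quantile normalization, -0.02 in the authors' deposited table and -0.03 with marker scores as covariates. The p-values set group differences against the spread between mares, which with 1 array per mare also holds array, slide and spot error.

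Among the subunits, NFKB2, the precursor of the non-canonical route, had the smallest p. After progressive weaning its values had a lowest of 2.91, a median of 3.49 and a highest of 3.76, against 3.35, 3.61 and 3.98 after brutal weaning. The groups overlapped, but 13 of 16 progressively weaned mares lay below the brutal median. The mean was 3.46 ± 0.20 after progressive weaning and 3.63 ± 0.20 after brutal weaning (SD, n = 16 each), a difference of -0.17 (SE 0.074, 95% interval -0.32 to -0.02), or a ratio of 0.889. limma gave p = 0.0276 and an adjusted p of 0.996. The mean was lower after progressive weaning on 4 of 4 slides, by differences between -0.24 and -0.11. Progressive mare 16 had the lowest value of all 32 mares, and without that mare the difference was -0.13. The array of this mare stood apart, with 851 outlier spots against at most 180 on any other array.

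RELB, the partner of processed NFKB2, had the widest spread of the 5 subunits. Its values after progressive weaning had a lowest of -3.65, a median of -2.80 and a highest of -2.30, against -3.06, -2.66 and -1.37 after brutal weaning. The extremes were single mares: progressive mare 16 was lowest, with the next at -3.17, and brutal mare 3 was highest, with the next at -2.19. The mean was -2.83 ± 0.31 after progressive weaning and -2.61 ± 0.43 after brutal weaning (SD, n = 16 each), a difference of -0.22 (SE 0.13, 95% interval -0.48 to 0.05, adjusted p = 0.996 by limma). The mean was lower on 3 of 4 slides. On the RELB oligo the difference was -0.15, in the same direction. It was -0.16 without the array of progressive mare 16, -0.11 with normexp background correction and -0.12 in the authors' deposited table.

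RELA, the main activating subunit of the canonical route, had a lowest value of 4.96, a median of 5.32 and a highest value of 5.61 after progressive weaning, against 5.15, 5.39 and 5.71 after brutal weaning. The mean was 5.31 ± 0.18 after progressive weaning and 5.42 ± 0.13 after brutal weaning (SD, n = 16 each), a difference of -0.11 (SE 0.061, adjusted p = 0.996 by limma). The groups overlapped, and the mean was lower after progressive weaning on 4 of 4 slides. This value comes from the brightest of 3 probes that share 58 or 59 bases with each other. The RELA probe printed above lies apart from these 3 and gave a difference of 0.01. This probe was dim, with a mean of -3.09 over the 32 mares, beside 5.36 for the brightest probe. It was still well above background on all 32 arrays. With quantile normalization the difference of the brightest probe was -0.04, and in the authors' deposited table -0.03. RELA varied little between mares: 7.59% of all genes had a smaller SD over the 32 mares.

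NFKB1, whose precursor is cut to the usual partner of RELA, averaged -0.61 ± 0.20 after progressive weaning and -0.62 ± 0.19 after brutal weaning (SD, n = 16 each). Its difference was 0.01 with a 95% interval of -0.14 to 0.16. That interval limits a ratio of the groups to between 0.91 and 1.12. REL, the subunit best known from lymphocytes, averaged -0.86 ± 0.27 after progressive weaning and -0.93 ± 0.14 after brutal weaning (SD, n = 16 each). Its difference was 0.07 (SE 0.078, adjusted p = 0.996 by limma), higher after progressive weaning on 4 of 4 slides, though by 0.0016 to 0.02 on 3 of them. The 3 lowest values of REL, down to -1.45, all came from progressively weaned mares.

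**Figure D1:**
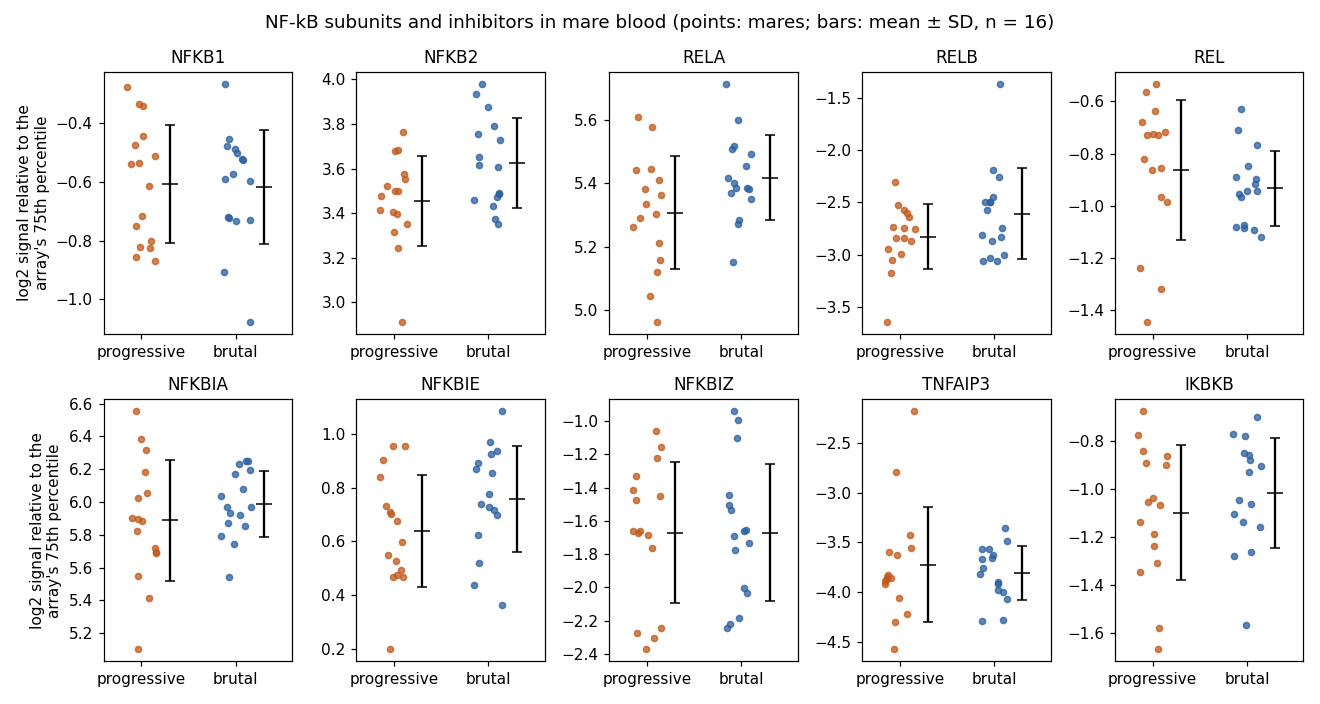
Each panel shows 1 of the 10 genes, with the log2 signal relative to the array's 75th percentile on the vertical axis and the 16 progressively and 16 brutally weaned mares as points, and bars for the mean and SD. The groups overlap in every panel, brutal mare 3 stands apart for RELB at -1.37, and progressive mare 12 stands apart for TNFAIP3 at -2.18.

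Among the inhibitors, NFKBIA, which holds RELA pairs in the cytoplasm, had a lowest value of 5.10, a median of 5.89 and a highest value of 6.55 after progressive weaning, against 5.54, 5.97 and 6.25 after brutal weaning. The brutally weaned mares lay within the range of the progressively weaned ones. The mean was 5.89 ± 0.37 after progressive weaning and 5.99 ± 0.20 after brutal weaning (SD, n = 16 each), a difference of -0.10 (SE 0.10, adjusted p = 0.996 by limma). With quantile normalization the difference was -0.0080, and in the authors' deposited table -0.0067. The gene has 6 probes, of which 5 share 56 to 59 bases and the probe printed above shares at most 2 with any of them.

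NFKBIE, an inhibitor related to NFKBIA, had a lowest value of 0.20, a median of 0.64 and a highest value of 0.96 after progressive weaning, against 0.36, 0.76 and 1.09 after brutal weaning. The mean was 0.64 ± 0.21 after progressive weaning and 0.76 ± 0.20 after brutal weaning (SD, n = 16 each), a difference of -0.12 (SE 0.075, adjusted p = 0.996 by limma). Of the 16 progressively weaned mares, 12 lay below the brutal median, and the mean was lower on 3 of 4 slides.

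NFKBIZ, a nuclear inhibitor protein that also helps switch on some targets, averaged -1.67 ± 0.43 after progressive weaning and -1.67 ± 0.41 after brutal weaning (SD, n = 16 each). The slides differed in direction, from -0.35 on slide 2 to 0.23 on slide 4. Over all mares its signal spanned a 2.70-fold range, and 75.3% of all genes had a smaller SD.

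TNFAIP3, the ubiquitin-editing enzyme also called A20 that shuts off signalling upstream of the kinase, had the widest range of the 10 genes, 5.25-fold over the 32 mares. Its values had a lowest of -4.57, a median of -3.85 and a highest of -2.18 after progressive weaning, against -4.28, -3.79 and -3.35 after brutal weaning. The 2 highest values, -2.18 and -2.79, both came from progressively weaned mares. The mean was -3.72 ± 0.57 after progressive weaning and -3.81 ± 0.27 after brutal weaning (SD, n = 16 each), a difference of 0.08 (SE 0.15, adjusted p = 0.996 by limma). Without the array of progressive mare 16 the difference was 0.02, without slide 4 it was 0.0084, and without slide 3 it was -0.04. Its 2 spots differed within an array by an SD of 0.473, and the average of the 2 had an SD of 0.443 over mares. Averaging lowers spot error, so these SDs are not like measures. Spot error was still large for this dim probe. For the other genes with repeated spots the spot SD was smaller than the spread over mares: 0.191 against 0.412 for NFKBIZ, 0.198 against 0.319 for the RELB oligo, and 0.0316 against 0.300 for the NFKBIA probe with the least spot error.

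IKBKB, the kinase that starts the destruction of the inhibitors, averaged -1.10 ± 0.28 after progressive weaning and -1.02 ± 0.23 after brutal weaning (SD, n = 16 each), a difference of -0.08 (SE 0.091, adjusted p = 0.996 by limma). Its mean was lower after progressive weaning on 3 of 4 slides.

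**Figure D2:**
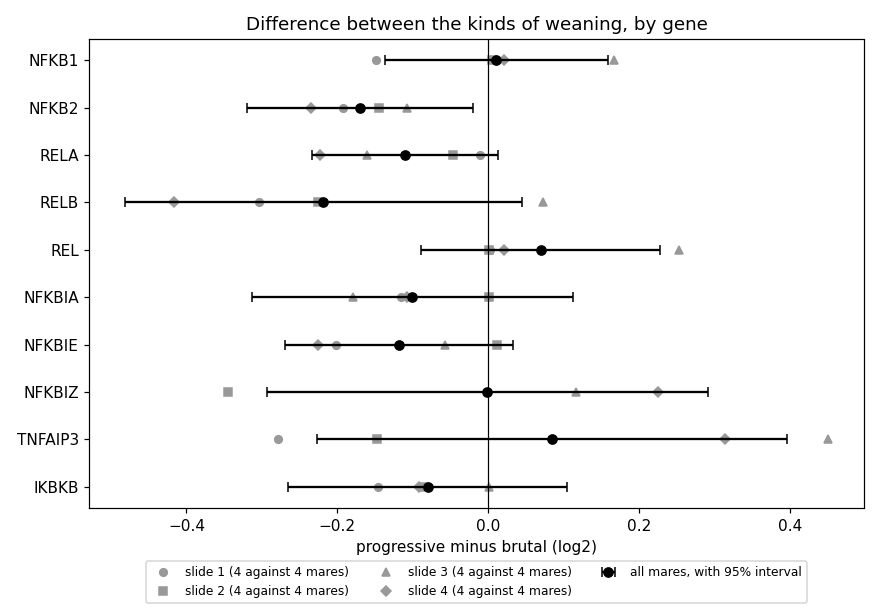
The horizontal axis gives the progressive minus brutal difference of each gene in log2 units; black points are all 32 mares with the 95% interval, and grey points are the 4 slides. NFKB2 is the gene whose interval, -0.32 to -0.02, leaves out 0, and the slide points of 7 of the 10 genes, all but NFKB2, RELA and REL, lie on both sides of 0.

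Marker genes of blood cell types are given beside these values, with no test between the groups. Of 16 neutrophil markers tested, 15 were lower after progressive weaning, and the neutrophil score (the mean of the markers' values in SD units) ran from -1.49 to 1.25 after progressive weaning and from -1.19 to 0.88 after brutal weaning. Platelet markers were lower for 8 of 9, erythroid markers for 5 of 6 and NK markers for 7 of 10, where 58.2% of all genes were lower. T cell markers were lower for 6 of 16, B cell markers for 3 of 10 and monocyte markers for 6 of 11. Of the listed markers, 6 of 17 were tested for erythroid cells, 9 of 14 for platelets and 16 of 21 for neutrophils. For monocytes 11 of 14 were tested, for NK cells 10 of 12 and for B cells 10 of 11. The groups overlapped in all 7 scores. In whole blood, fewer cells of a type and less RNA per cell cannot be told apart. With the neutrophil, T cell, erythroid and platelet scores as covariates, the difference of NFKB2 was -0.18 and that of RELB -0.26. In that fit the difference of RELA was -0.03, that of NFKBIE -0.03 and that of NFKBIA 0.06, and the part of the scores in the group differences was not tested further.

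Other genes of the pathway were compared in the same fit. Of the receptors, adaptors, kinases and ubiquitin enzymes listed as acting upstream of NF-kB, 35 of 44 were tested and 0 passed the threshold, by limma. In that list 27 of 35 were lower after progressive weaning (77.1%, beside 58.2% of all genes), with a median of -0.06. At an unadjusted p under 0.05, 1 of 35 was called, beside 2.56% of all genes. In this list and the next 2, the 3 genes with the smallest p are named. Each of them had an adjusted p of 0.996 by limma. MYD88, the adaptor of Toll-like and interleukin 1 receptors, averaged 5.55 ± 0.30 after progressive weaning and 5.76 ± 0.25 after brutal weaning (SD, n = 16 each), a difference of -0.21 with an unadjusted p of 0.0449. TRAF5, an adaptor of TNF family receptors, differed by 0.19. BCL10, an adaptor of antigen receptors, differed by -0.11.

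Of the genes that restrain the pathway, 27 of 31 were tested, 0 passed and 21 were lower after progressive weaning (77.8%), with a median of -0.05. At an unadjusted p under 0.05, 2 of 27 were called, beside 2.56% of all genes. BCL3, a nuclear relative of the inhibitors, averaged 4.30 ± 0.50 after progressive weaning and 4.60 ± 0.32 after brutal weaning (SD, n = 16 each), a difference of -0.30 with an unadjusted p of 0.0453. NFKBIB, a close relative of NFKBIA and NFKBIE, differed by -0.17 with an unadjusted p of 0.0441. TNIP1, which binds TNFAIP3, differed by -0.16. With the 4 marker scores as covariates the median of these genes was 0.01.

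Of the known target genes, 43 of 60 were tested, 0 passed and 29 were lower after progressive weaning (67.4%), with a median of -0.08. At an unadjusted p under 0.05, 2 of 43 were called, beside 2.56% of all genes. Without slide 4 the median of the list was -0.01. IL1RN, the interleukin 1 receptor antagonist, averaged 4.15 ± 0.43 after progressive weaning and 4.52 ± 0.37 after brutal weaning (SD, n = 16 each), a difference of -0.37 with an unadjusted p of 0.0111. JUNB, a transcription factor of the AP-1 family, differed by -0.28 with an unadjusted p of 0.0203. IL1B, the cytokine interleukin 1 beta, differed by -0.32.

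**Figure D3:**
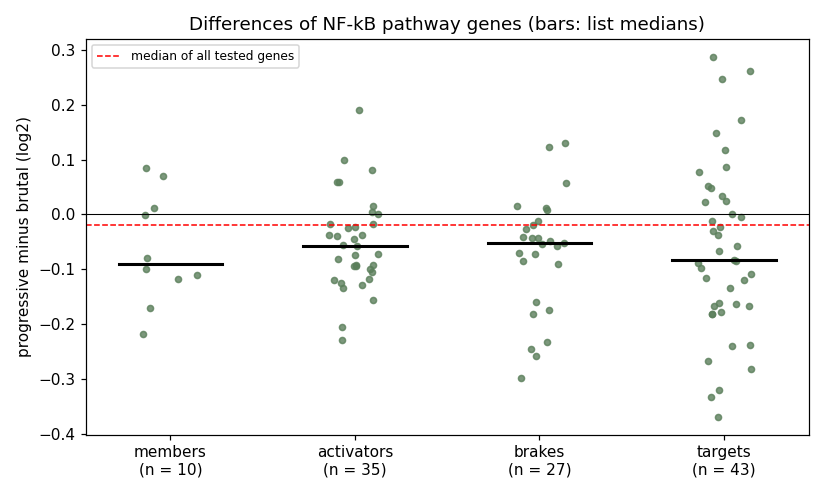
Points are genes, the vertical axis is the progressive minus brutal difference in log2 units, bars are list medians, and the dashed line is the median of all 9156 genes at -0.02. The 4 medians lie between -0.09 and -0.05, below the line, with genes on both sides of 0 in each list.

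The members were then compared with each other over the 32 mares, whatever their group. There are 45 pairs among 10 genes, and their p-values come from 100000 permutations, adjusted over the 45. All values of a mare come from 1 array. The pair NFKB2 and RELB, partners in the non-canonical route, had r = 0.69 (rho = 0.65, permutation p = 5e-05, adjusted p = 0.00075). Without the 2 mares farthest from the median of NFKB2, r was 0.55. Brutal mare 3, the highest for RELB, was not among these 2. It was 0.78 in progressively weaned and 0.58 in brutally weaned mares, and lay between 0.56 and 0.89 within the 4 slides. On the RELB oligo, which shares no stretch with the first RELB probe, r with NFKB2 was 0.77. Ranked by r with RELB, NFKB2 came 5 of 9155 genes, and ranked by r with NFKB2, RELB came 103. These ranks were not repeated without the extreme mares of RELB. Without the array of progressive mare 16, r was 0.60.

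The adjusted permutation p of the other chosen pairs did not reach 0.05. NFKB1 with RELA, the classical pair of subunits, had r = 0.01, but 0.38 with quantile normalization and 0.46 in the authors' deposited table of log2 values. The kinase target NFKBIA had r = -0.17 with NFKB1, 0.04 with TNFAIP3 and -0.08 with NFKBIZ, which like NFKBIA are known targets of NF-kB. NFKBIA with TNFAIP3 had r = 0.36 with quantile normalization. REL with NFKBIE had r = -0.41 and an adjusted permutation p of 0.0675.

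Of the 45 pairs, 12 had an adjusted permutation p under 0.05, and those named next were picked after their values were seen. All 6 pairs among RELA, NFKBIA, NFKBIE and IKBKB, genes of the canonical route, had a positive r. NFKB1 and REL, also subunits of that route, had r = 0.01 and -0.24 with RELA. RELA had r = 0.75 with NFKBIE, 0.72 with NFKBIA and 0.56 with IKBKB. NFKBIE had r = 0.63 with IKBKB and 0.62 with NFKBIA, and NFKBIA had r = 0.59 with IKBKB. The adjusted permutation p of these 6 pairs lay between 0.000225 and 0.00489. Many other genes had values as high: the 95th percentile of r over all genes was 0.66 with RELA, 0.61 with NFKBIA, 0.67 with NFKBIE and 0.61 with IKBKB. RELA with NFKBIE and RELA with NFKBIA lay above the percentiles of both genes, while RELA with IKBKB and NFKBIA with IKBKB lay below both. Within slides, r for RELA and NFKBIE was 0.61 to 0.86, but r for RELA and NFKBIA was 0.02 on slide 2 and 0.68 to 0.92 on the others. On the dim, separate RELA probe printed above, r was 0.42 with NFKBIE, 0.38 with NFKBIA and 0.38 with IKBKB.

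Part of this pattern depended on the normalization. With quantile normalization, r was 0.14 for RELA with NFKBIE, 0.30 for NFKBIA with NFKBIE and 0.45 for RELA with NFKBIA. The pairs with the kinase changed less: r was 0.70 for NFKBIE with IKBKB, 0.60 for NFKBIA with IKBKB and 0.52 for RELA with IKBKB.

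NFKB1, REL and TNFAIP3 also had positive r with each other. NFKB1 had r = 0.43 with REL and 0.45 with TNFAIP3, and REL had r = 0.46 with TNFAIP3, with adjusted permutation p-values of 0.0480, 0.0437 and 0.0430. The 95th percentile of r over all genes was 0.50 with NFKB1, above both of its values, and REL came 753 and TNFAIP3 683 of 9155 genes by r with NFKB1. The 2 REL probes share no stretch of sequence, and on the second one r was 0.43 with NFKB1 and 0.53 with TNFAIP3. With normexp background correction in place of the processed signal, r of the dim TNFAIP3 probe was 0.03 with NFKB1 and 0.11 with REL. NFKB2 had r = 0.49 with NFKBIE and -0.44 with NFKBIZ (adjusted permutation p = 0.0221 and 0.0446), values that were 0.20 and -0.33 with quantile normalization. The 95th percentile of r over all genes was 0.59 with NFKB2 and 0.67 with NFKBIE, both above 0.49. NFKBIE came 1202 of 9155 genes by r with NFKB2. The 5th percentile was -0.43 with NFKB2, close to the r with NFKBIZ, and -0.57 with NFKBIZ, below it.

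**Figure D4:**
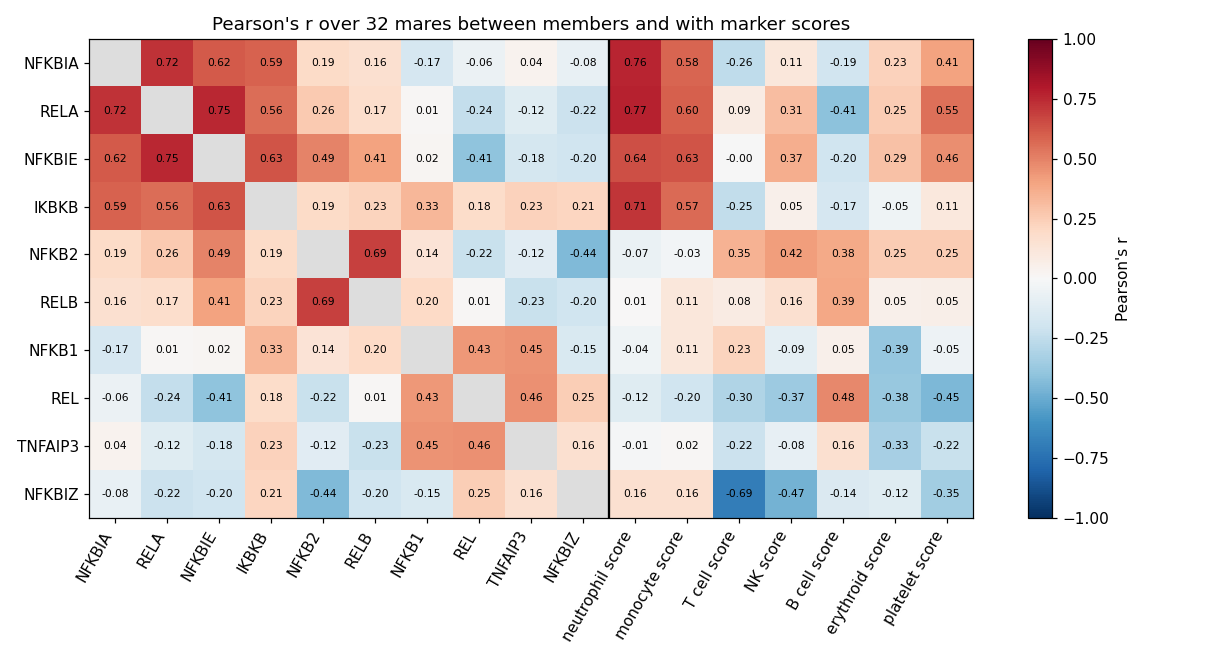
Cells give Pearson's r over the 32 mares, left of the line between the 10 genes and right of it between each gene and a cell type marker score. NFKBIA, RELA, NFKBIE and IKBKB have r of 0.56 to 0.75 with each other and of 0.64 to 0.77 with the neutrophil score, and NFKB2 has r of 0.69 with RELB.

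The same 4 genes, picked by their r with each other, were correlated with the marker scores of neutrophils and monocytes. NFKB1 and REL, canonical subunits outside this set, had r = -0.04 and -0.12 with the neutrophil score. There were 70 relations of 10 genes with 7 scores, of which 13 had an adjusted permutation p under 0.05. How many of all tested genes had values as high with these scores was not counted. The relations are therefore not shown to be particular to these genes. The neutrophil score had r = 0.77 with RELA, 0.76 with NFKBIA, 0.71 with IKBKB and 0.64 with NFKBIE, with adjusted permutation p-values between 0.000233 and 0.0014. Without the 2 mares farthest from the median score, these r were 0.54 to 0.70. Within slides they were between 0.30 and 0.98. For RELA, r with the neutrophil score was 0.54 with quantile normalization and 0.43 in the authors' deposited table. For NFKBIA, IKBKB and NFKBIE it stayed at 0.565 or more in both. The monocyte score had r between 0.57 and 0.63 with the same 4 genes, but 0.28 with RELA under quantile normalization. How closely the neutrophil and monocyte scores follow each other was not computed, so their relations cannot be taken as separate results. RELA and NFKBIE had r = 0.55 and 0.46 with the platelet score, and 0.33 and 0.33 without the 2 farthest mares.

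The separate probes differed here. The NFKBIA probe printed above had r = 0.82 with the neutrophil score, while the RELA probe printed above had r = 0.31 (permutation p = 0.0863). Over the 32 mares that NFKBIA probe averaged 4.46 and that RELA probe -3.09. Whether the dim signal bears on the lower r was not tested. After the neutrophil, T cell, erythroid and platelet scores were regressed out of each gene, r within the set of 4 genes was between 0.07 and 0.42. In the same residuals NFKB2 and RELB had r = 0.71. The neutrophil score itself had r = -0.07 with NFKB2 and 0.01 with RELB.

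NFKBIZ ran against the T cell score, with r = -0.69 (rho = -0.70, adjusted permutation p = 0.000233). Without the 2 farthest mares r was -0.66, within slides it lay between -0.84 and -0.56, and it was -0.58 in progressively weaned and -0.80 in brutally weaned mares. The T cell score rests on 16 of 16 listed markers. REL had r = 0.48 with the B cell score (adjusted permutation p = 0.0307), but on its second probe r was 0.28. NFKBIZ also had r = -0.47 with the NK score (adjusted permutation p = 0.0342).

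**Figure D5:**
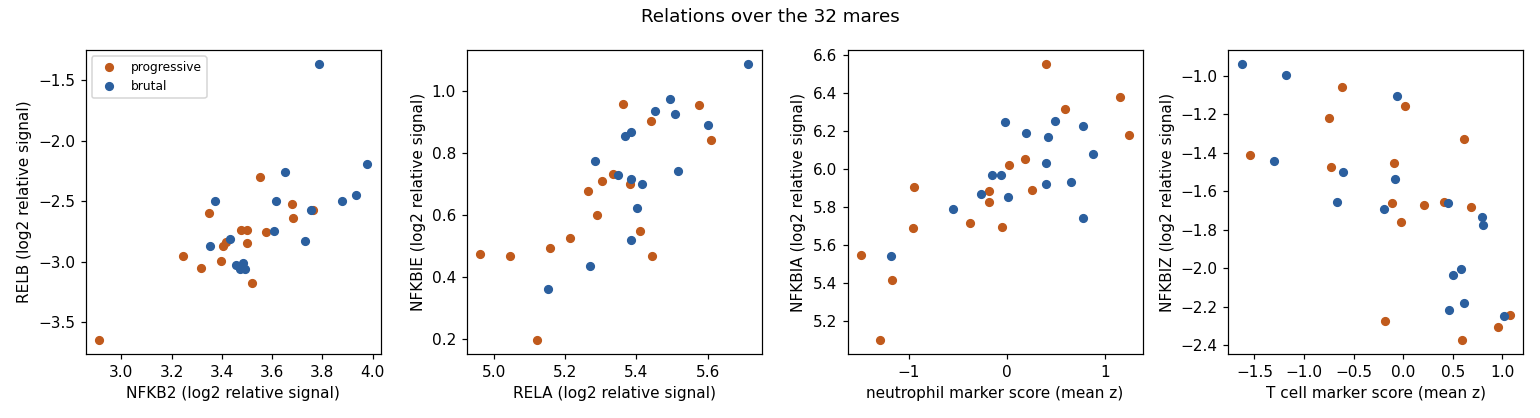
Points are mares, and the panels plot RELB against NFKB2, NFKBIE against RELA, NFKBIA against the neutrophil score and NFKBIZ against the T cell score, in log2 relative signal or mean SD units. The first 3 panels rise (r = 0.69, 0.75 and 0.76), the last falls (r = -0.69), and both groups are spread along each cloud.

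For each gene, the most similar patterns were sought among 7231 other genes that were well above background on every array, and r over the 32 mares is given as a description. IKBKB was most like FMNL1 (r = 0.89) and CSF3R (0.87), the receptor of granulocyte colony-stimulating factor and a marker in the neutrophil score. NFKBIE was most like TGFB1 (0.92), the cytokine transforming growth factor beta 1, and DCAF11 (0.92). RELA was most like TINF2 (0.92), a telomere-binding protein, and CPNE1 (0.89), though with TINF2 r was -0.07 on slide 2. NFKBIA was most like TNIP1 (0.83), the TNFAIP3-binding protein of the restraining list, and RALB (0.82), a small GTPase.

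The remaining genes had other partners. NFKB1 was most like ELK4 (0.84), a transcription factor, and NFATC2 (0.82), a calcium-regulated transcription factor of T cells. REL was most like TMEM131 (0.84) and RBM5 (0.77), an RNA-binding protein. NFKB2 was most like ZNF296 (0.82) and SLC16A11 (0.81), and NFKBIZ was most like PTPN12 (0.82), a tyrosine phosphatase, and RB1 (0.81), the retinoblastoma protein. TNFAIP3 was most like EXOC4 (0.72) and LYST (0.70). RELB was most like USP21 (0.76), a deubiquitinase, and STX18 (0.73), but without the 2 mares farthest from its median these values were 0.50 and 0.27.

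The probes of 1 gene gave a further measure of precision. The 6 NFKBIA probes had r of 0.96 or more with each other, including the one that lies apart from the other 5, and their differences lay between -0.13 and -0.09. The 3 overlapping RELA probes had r of 0.94 to 0.97 with each other and 0.53 to 0.62 with the dim, separate probe. The 2 probes of REL had r = 0.73 and the 2 of RELB r = 0.61.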

How the data were processed

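Per the submitters' processing notes, the arrays were read with Agilent Feature Extraction 10.10.1.1. The deposited files hold a background-subtracted, 1-colour intensity per spot, per the file headers. The authors also deposited a table of normalized log2 values, used as an alternative; the tool behind it is not given in sources used here. The headers name an older horse genome build for the probes, so no coordinates are printed. Outlier spots (2483) were left out, 0 spots were saturated, and spots of a probe were averaged. Log2 intensity minus the array's 75th percentile was tested with limma 3.58.1 (R 4.3.3) without covariates, for probes that the scanner software set well above background on 8 or more arrays from either group. The brightest tested probe stood for a gene. Correlations used 100000 two-sided permutations (numpy 2.4.6). The fit was tested on simulated data. There, of genes changed by 0.25, by 0.5 and by 1 (log2), 34%, 78% and 98% were recovered. The same run gave 13 false calls over 9156 genes. Whether these shares hold for the measured genes, the 10 members among them, was not tested. The members, lists, pairs and tests were chosen with earlier results of these data known. The text names the 10 genes, 6 chosen pairs, the 3 genes with the smallest p of each other list, and each gene's 2 most similar genes. Alternatives were background correction, normalization, filter, slide, array weights, marker scores as covariates, other probes, and leaving out a slide or an array. The number of arrays limits the precision.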

Additional observations from a re-analysis of the deposited data

How the results depend on the processing

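No paired analysis was possible because the labels tie no progressively weaned mare to any brutally weaned one. The count of genes past the threshold was 0 under all 17 alternatives of the limma fit; the unadjusted count was 438 with array weights, 136 without slide 4 and 144 without slide 3, beside 234. NFKB2, NFKBIE, RELB and IKBKB kept a negative difference under every alternative run, NFKB2 between -0.19 and -0.11. Signs turned for genes with small differences: without slide 3, NFKB1 was -0.0409 and TNFAIP3 -0.0373; with marker scores as covariates, NFKB1 was -0.0377, REL -0.0021 and NFKBIA 0.0625; NFKBIZ was 0.0209 with the percentile of probes detected on all arrays, 0.0088 in the authors' table and 0.11 without slide 2; RELA was 0.0111 on its separate probe. The stricter filter left TNFAIP3 untested. The correlation of NFKB2 with RELB lay between 0.55 and 0.77 under every alternative run. With quantile normalization and in the authors' table, r was 0.38 and 0.46 for NFKB1 with RELA, 0.0287 and 0.0085 for NFKB1 with NFKBIA, 0.36 and 0.36 for NFKBIA with TNFAIP3, 0.10 and 0.11 for NFKBIA with NFKBIZ, and -0.34 and -0.30 for REL with NFKBIE. RELA with NFKBIE, picked after its value was seen, had r = 0.14 and 0.0051 there. In residuals after the marker scores, r was -0.0532 for NFKB1 with RELA, -0.37 for NFKBIA with NFKBIZ and -0.28 for REL with NFKBIE. REL with NFKBIE was -0.29 in slide-centred values and -0.32 on the second REL probe, and NFKBIA with TNFAIP3 was -0.0807 without progressive mare 16. The use of other probes, and every alternative for pairs picked by value, were chosen after seeing the data. The cause of these changes was not tested. Where few spots or a dim signal stand behind a probe, as for TNFAIP3, spot error limits what can be seen. The probes that stand for NFKB1, NFKB2, RELA, RELB, REL, NFKBIE and IKBKB have no repeated spots, so their spot error was not estimated.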
